A study of Mus musculus with 9 samples.

Results

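The reads described here are small RNA reads of mouse miRNAs that stopped before the annotated mature 3′ end, so that 1 or more of the last bases were missing. They were taken by coordinates from the read sequences of all 9 libraries, and the number of missing bases is the mature end minus the end of the read. Truncated reads made up 612337 of 2725482 reads and 2042 of 3852 distinct read sequences, and 625 of 817 miRNAs had at least 1. Results are given for the 76 miRNAs that reached 50 reads in each of the 9 libraries, which held 585422 of the truncated reads in 610 distinct sequences. The truncated share of a miRNA is the percentage of its reads that were truncated.

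The libraries came from preleukemic *Meis1/Hoxa9* cells, which are c-Kit-enriched mouse fetal liver cells of embryonic day E14.5 carrying retroviral *Meis1* and *Hoxa9*, replated serially and grown with stem cell factor, IL-6 and IL-3. The 5 *Tut4/7* CTL libraries, whose labels say WT, were Tut4 fl/fl; Tut7 fl/fl cells without Vav-iCre, and the 4 *Tut4/7* cKO libraries were Tut4 fl/fl; Tut7 fl/fl cells with Vav-iCre, a Cre expressed throughout blood lineages. All 9 therefore shared the floxed alleles, the C57BL/6 background, the oncogenes and the culture. The study's methods say that replicates outside its human cell line work came from separate animals or embryos, though the labels do not name the embryo behind each library. The small RNA reads carry no *Tut4* or *Tut7* mRNA that could check the genotype labels.

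A mature miRNA is cut out of a hairpin by DROSHA and DICER and then sits in an Argonaute protein, with its 3′ end the more exposed one. That end varies between molecules of one miRNA, because the cuts are not all at one base, exonucleases trim it and nucleotidyl transferases extend it. TUT4 and TUT7 are terminal uridylyl transferases that add uridine to let-7 precursors and to many mature miRNAs, and such tails have been linked to turnover. A uridine added to a miRNA reads as T.

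Each library held 175462 to 479342 reads, of which 96.6% to 97.7% belonged to the 76 miRNAs. Myeloid miR-223-3p had 372 to 3778 reads per library and miR-155-5p 195 to 3491, while blood-specific miR-142a-3p had only 12 to 55 and miR-142a-5p 0 to 5. Of miRNAs of other tissues, liver miR-122-5p had 102 to 554 reads and epithelial miR-200c-3p 51 to 502, while epithelial miR-141-3p had at most 1. Erythroid miR-451a, muscle miR-1a-3p and neural miR-9-5p had at most 2 each. Erythroid miR-144-3p, muscle miR-133a-3p and neural miR-124-3p had 0. The part of these miRNAs in the truncated reads was not tested.

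The library labelled CTL replicate 2 stood apart in tailing. The median share of reads ending in Ts past the mature end, listed as uridylated, was 0.874% over the 76 miRNAs in it, against 3.74% to 5.74% in the other 4 CTL libraries and 0.253% to 0.528% in the cKO libraries, and its share was the lowest of the CTL libraries for 62 of 76 miRNAs. Results that rest on this library are given with and without it. cKO replicate 4 had the highest truncated share of the cKO libraries for 41 of 76 miRNAs.

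The mature sequences that carry the main observations are given 5′ to 3′, in lower case, with capitals for the seed (bases 2 to 8) and for the 3′ bases absent from the most frequent truncated read. Letters are those of the deposited reads. Of the 76 miRNAs, 67 were matched by name in RefSeq (its GRCm38.p6 table) and 65 had the same sequence there. let-7d-3p and miR-328-3p are shown because they differed most between genotypes, both in a final T.
let-7d-3p: cTATACGAcctgctgcctttcT
miR-328-3p: cTGGCCCTctctgcccttccgT
The next 6 are shown for the range of 3′ ends, from a single lost base to 3, with miR-27b-3p beside its near-identical relative miR-27a-3p.
miR-27a-3p: tTCACAGTggctaagttccgC
miR-27b-3p: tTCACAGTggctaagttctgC
miR-744-5p: tGCGGGGCtagggctaacagcA
miR-298-5p: gGCAGAGGagggctgttcttcCC
miR-24-3p: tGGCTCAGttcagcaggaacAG
miR-423-3p: aGCTCGGTctgaggcccctcAGT
miR-181a-5p is shown for its higher truncated share in cKO libraries, and miR-148a-3p, the least truncated of the 76, beside its relative miR-148b-3p.
miR-181a-5p: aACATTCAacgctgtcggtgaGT
miR-148a-3p: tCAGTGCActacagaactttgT
miR-148b-3p: tCAGTGCAtcacagaactttgT
The last pair is followed by a truncated read that both can give. It was listed under let-7c-5p in some libraries only, and the capitals at the 3′ end of let-7c-5p rest mostly on it.
let-7a-5p: tGAGGTAGtaggttgtatagtT
let-7c-5p: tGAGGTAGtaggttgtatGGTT
shared read: tgaggtagtaggttgtat

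Most truncated reads were short of the mature end by very little. Of the truncated reads of the 76 miRNAs, 61.5% lacked 1 base, 22.6% lacked 2, 9.19% lacked 3 and 5.87% lacked 4, and the most that any lacked was 10. Reads of 20 to 22 bases made up 22.2%, 43.3% and 21.7% of them, and the shortest in the files had 16 bases, so any shorter fragment is not counted. The commonest truncated read lacked 1 base in 59 miRNAs, 2 in 10, 3 in 5 and 4 or more in 2. The mean number of missing bases per truncated read ran from 1.03 in miR-532-5p to 3.99 in let-7c-5p, with a median of 1.53 over miRNAs. let-7c-5p was also 1 of the 2 whose commonest truncated read lacked 4 or more. Of its truncated reads, 97.8% had a sequence that fits another miRNA too, so both values depend on how shared reads were listed.

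How often a miRNA was truncated differed far more between miRNAs than between libraries. The mean share over the 9 libraries ran from 0.144% to 97.7%, with a median of 25.5%. It was over 50% in 16 miRNAs, between 10% and 50% in 44 and under 5% in 9. Within a genotype the SD over libraries had a median over miRNAs of 3.08 percentage points in CTL and 3.58 in cKO. The CTL and cKO means correlated across the 76 miRNAs with a Pearson r of 0.946, a description over miRNAs that are not independent replicates. Truncation was also concentrated, since the 10 miRNAs with the most truncated reads held 57.2% of them.

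In 13 miRNAs the most frequent 3′ end lay before the annotated one, in 56 at it and in 7 past it, and the most frequent end was the same in all 9 libraries for 59. miR-27a-3p, a miRNA of the miR-23a/27a/24-2 cluster encoded at GRCm39 chr8:84935356-84935376 (+ strand, no host gene on that strand), was the most truncated of the 76. Its share was 97.1%, 98.8%, 96.6%, 96.9% and 94.6% in CTL replicates 1 to 5 and 99.1%, 98.1%, 98.8% and 99.1% in cKO replicates 1 to 4. Nearly all of these reads were the same molecule without the final C, which made up 94.6% of all miR-27a-3p reads. The genotype groups overlapped (log2 odds ratio 1.304, SE 0.43, edgeR adjusted p = 0.101). miR-122-5p, the main miRNA of hepatocytes, had 96.6% ± 1.36 truncated reads in CTL (SD, n = 5) and 96.5% ± 0.814 in cKO (SD, n = 4).

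miR-27b-3p, encoded at chr13:63448574-63448594 (+ strand, over an exon of *Aopep*), has the same length and seed as miR-27a-3p and differs from it by C19T, counted from 1 at the 5′ end of miR-27a-3p. Its truncated share was 26.5%, 38.2%, 21.05%, 26.4% and 23.5% in CTL replicates 1 to 5 and 36.9%, 39.4%, 37.6% and 51.3% in cKO replicates 1 to 4. It was lower than that of miR-27a-3p in all 9 libraries, by 47.7 to 75.6 percentage points. The pair was chosen after these values were seen. A few reads too short to reach the differing base, 451 of 18 bases in all, were listed under either name.

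miR-298-5p (chr2:174109346-174109368, - strand, in an intron of the lncRNA *Gnasas1*) lost bases in steps. Its truncated share was 89.5% ± 3.19 in CTL (SD, n = 5) and 91.4% ± 3.85 in cKO (SD, n = 4), and reads without the final 2 Cs were the most frequent form at 57.3% of reads. Reads lacking 1 base made up 17.2% ± 3.60 in CTL and 17.8% ± 5.49 in cKO, and full-length reads 8.05% ± 2.14 and 8.38% ± 3.81. miR-744-5p (chr11:65625625-65625646, - strand, over an exon of *Map2k4*) mostly lost only its final A, and its truncated share was 66.8% ± 2.99 in CTL and 72.4% ± 3.31 in cKO.

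In other miRNAs the 3′ ends skipped a position. miR-24-3p, which is transcribed from chr8:84935504-84935525 and chr13:63449065-63449086 (both + strand), had 42.6% ± 1.503 full-length reads, 14.1% ± 1.19 lacking the last base and 39.2% ± 1.55 lacking the last 2 in CTL (SD, n = 5). In cKO these were 41.6% ± 2.42, 12.6% ± 0.983 and 45.2% ± 3.16 (SD, n = 4). miR-423-3p (chr11:76968912-76968934, - strand, in an intron of *Nsrp1*) lacked 1 base in 10.1% ± 2.55 of CTL reads, 2 in 1.71% ± 0.513 and 3 in 11.4% ± 3.23, against 10.3% ± 2.101, 2.101% ± 0.353 and 13.6% ± 3.39 in cKO.

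By number of reads, miR-191-5p contributed most, with 52267 truncated reads or 8.93% of the total. This miRNA of the miR-191/425 cluster had a share of 31.3% ± 2.57 in CTL (SD, n = 5) and 33.3% ± 5.24 in cKO (SD, n = 4). Its cluster partner miR-425-5p had 77.0% and 83.7% as group means. miR-330-5p had group means of 83.6% and 82.4%. miR-221-3p, which targets the stem cell factor receptor Kit, varied most between libraries of one genotype among the 10 miRNAs with most truncated reads, with 49.6%, 55.7%, 26.9%, 40.8% and 28.1% in CTL replicates 1 to 5 and 49.0%, 26.1%, 37.9% and 60.7% in cKO replicates 1 to 4. Its genotype groups overlapped over nearly their whole range.

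At the other extreme, miR-148a-3p (chr6:51246809-51246830, - strand) had 85 truncated reads among 58188. Its share was 0.163%, 0.128%, 0.131%, 0.167% and 0.0615% in CTL replicates 1 to 5 and 0.107%, 0.0466%, 0.0899% and 0.399% in cKO replicates 1 to 4. miR-148b-3p differs from it by C9T and T10C, shares its seed and its 3′ end, and had 9.75% ± 2.40 in CTL (SD, n = 5) and 12.2% ± 0.567 in cKO (SD, n = 4), which was above miR-148a-3p in all 9 libraries by 7.03 to 13.3 percentage points. miR-26a-5p stood at 0.850% and 0.731%, and miR-296-5p at 0.361% and 1.52%, as CTL and cKO means. miR-296-5p had only 25 truncated reads in all.

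miR-92a-3p and miR-7a-5p were also among the 5 least truncated, and their reads mostly ended past the annotated end. The listed mature sequence of miR-92a-3p was followed by at least 1 T in 96.5% of CTL and 96.0% of cKO reads. Its copy at chr14:115281908-115281928 (+ strand, in the miR-17-92 host gene) has T as the next genomic base. Its other copy, at chrX:51830731-51830751 (- strand), has A next, and reads of the copies cannot be told apart by the mature sequence. For miR-7a-5p the shares followed by T were 95.4% and 97.6%, with T next in the genome at both copies. For these 2 miRNAs a read ending at the listed mature end may thus already be shorter than the common form. The same holds for others with T next in the genome, such as miR-26b-5p, with 89.5% of CTL and 88.3% of cKO reads followed by T. The truncated share of miR-92a-3p was 0.513% ± 0.188 in CTL (SD, n = 5) and 0.579% ± 0.331 in cKO (SD, n = 4). miR-25-3p, which has the same seed and targets overlapping genes, had 22.9% ± 1.59 and 25.6% ± 2.97 and lay above miR-92a-3p in all 9 libraries.

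The last mature base went with the level of truncation. The 32 miRNAs ending in T had a median share of 15.2%, the 17 ending in G 21.2%, the 13 ending in A 32.7% and the 14 ending in C 42.4%, and 2 of the 32 ending in T were over 50%. Where the first missing base is a T, a truncated molecule with 1 added uridine gives the same read as the longer molecule and is counted as that, so the 2 cannot be told apart. Where it is another base, such a molecule does not match the miRNA without mismatches and is not counted for it. Mature length gave medians of 13.3% for up to 21 bases (13 miRNAs), 25.1% for 22 (39) and 32.1% for 23 or more (24). The 41 miRNAs of the 5p arm had a median of 25.7% and the 33 of the 3p arm 25.4%. Across the 76 miRNAs, the truncated share correlated with length at Pearson r 0.16 and Spearman rho 0.25, with GC content at 0.27 and 0.23, with log10 reads at -0.12 and -0.09 and with the CTL uridylated share at -0.40 and -0.33. Truncated and uridylated shares have the same denominator, and these values are descriptions over miRNAs.

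The base left at the 3′ end of a truncated read was seldom A. Which base can be left is set by the mature sequences, whose own bases near the end were not set beside these values. A preference for an end base was thus not tested. In CTL libraries 7.30% ± 0.483 of truncated reads ended in A, 27.9% ± 6.93 in C, 27.3% ± 4.08 in G and 37.6% ± 3.16 in T (SD, n = 5). In cKO libraries these were 8.18% ± 0.941, 26.97% ± 6.09, 30.7% ± 2.03 and 34.2% ± 5.92 (SD, n = 4). For T the groups overlapped, and the difference was -3.40 percentage points (two-sided exact permutation p = 0.317, adjusted over 2 tests 0.619). The mean over 68 miRNAs was 34.8% ± 0.582 against 34.96% ± 0.555 (exact permutation p = 0.619).

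Whether loss of *Tut4* and *Tut7* went with more or fewer truncated reads was compared first over all reads. The truncated share of reads was 22.1%, 23.98%, 18.6%, 21.02% and 17.7% in CTL replicates 1 to 5 and 22.96%, 20.8%, 22.02% and 29.5% in cKO replicates 1 to 4. The groups overlapped, with cKO replicate 4 highest and CTL replicate 5 lowest. The mean was 20.7% ± 2.57 in CTL (SD, n = 5) and 23.8% ± 3.88 in cKO (SD, n = 4). The difference of 3.15 percentage points was not told apart from differences between relabelled libraries (two-sided exact permutation p = 0.238, smallest possible 0.0159). Counting error was small, with 95% Wilson intervals no wider than 0.398 percentage points. Without the library labelled CTL replicate 2 the difference was 3.97 (exact permutation p = 0.143), and without cKO replicate 4 it was 1.26.

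The median share over the 76 miRNAs gave 23.2%, 27.6%, 20.9%, 22.97% and 19.8% in CTL replicates 1 to 5 and 26.6%, 23.6%, 23.7% and 28.9% in cKO replicates 1 to 4. The difference was 2.81 percentage points (22.9% ± 2.97 against 25.7% ± 2.54, exact permutation p = 0.190). It reached 3.98 with an exact permutation p of 0.0286, the smallest that 4 against 4 allows, when the library labelled CTL replicate 2 was left out. Weighting every library by the same miRNA composition, a measure added after the data were seen, gave 20.8% ± 1.78 in CTL and 23.8% ± 2.203 in cKO (difference 2.996, exact permutation p = 0.0476) and a difference of 3.69 (p = 0.0286) without that library. The number of bases missing per truncated read was 1.61 ± 0.0318 in CTL and 1.64 ± 0.0499 in cKO (exact permutation p = 0.333).

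Uridylated reads are part of the total, so fewer of them alone raise the truncated share. The uridylated share was 14.5%, 11.0%, 17.9%, 16.9% and 25.0% in CTL replicates 1 to 5 and 19.6%, 12.4%, 10.2% and 7.70% in cKO replicates 1 to 4. This pooled share also follows the abundance of miR-92a-3p, nearly all of whose reads are listed as uridylated in both genotypes. That miRNA had 49865 of 278893 reads in CTL replicate 5 and 16332 of 234728 in CTL replicate 2. In cKO it had 29754 of 171348 in replicate 1 and 15294 of 347181 in replicate 4. The median per miRNA was only 0.253% to 0.528% in cKO. Reads listed as uridylated include those whose T the genome may encode. Among reads that were not uridylated, 24.9% ± 1.75 were truncated in CTL and 27.2% ± 3.81 in cKO, and the difference fell to 2.33 percentage points (exact permutation p = 0.270). The median share per miRNA then differed by 0.5001 percentage points (exact permutation p = 0.810).

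Split by missing bases, reads lacking 1 base made up 13.0% ± 1.67 of CTL and 14.3% ± 2.72 of cKO reads (exact permutation p = 0.413) and reads lacking 2 made up 4.51% ± 0.788 and 5.53% ± 1.14 (p = 0.175). Reads lacking 3 bases were 1.74%, 2.08%, 1.47%, 1.65% and 1.63% in CTL replicates 1 to 5 and 3.20%, 2.14%, 2.14% and 2.43% in cKO replicates 1 to 4. Here the groups did not overlap, and the difference of 0.764 percentage points had the smallest p of this design (exact permutation p = 0.0159, adjusted over the 4 classes 0.0635). Without the library labelled CTL replicate 2 the difference was 0.856 (exact permutation p = 0.0286). Reads lacking 4 or more were 1.49% ± 0.170 and 1.48% ± 0.119 (exact permutation p = 0.905). Most of the reads lacking 3 bases came from few miRNAs. miR-423-3p gave 32.7% of them in CTL and 30.9% in cKO, miR-181a-5p 19.2% and 19.9%, and miR-1981-5p 4.50% and 9.98%. As a share of all reads, which also follows the abundance of the miRNA, the 3-base form of miR-423-3p was 0.331%, 0.709%, 0.481%, 0.448% and 0.825% in CTL replicates 1 to 5 and 1.45%, 0.789%, 0.643% and 0.279% in cKO replicates 1 to 4, with cKO replicate 1 above and cKO replicate 4 below every CTL library. That of miR-1981-5p was 0.0573%, 0.188%, 0.0521%, 0.0583% and 0.0498% in CTL and 0.298%, 0.196%, 0.236% and 0.253% in cKO, and the groups did not overlap. Its abundance differed too, with 9316 reads over the CTL and 28689 over the cKO libraries. The truncated share of its own reads was 57.2% ± 6.74 in CTL and 57.0% ± 15.4 in cKO (log2 odds ratio 0.014, edgeR adjusted p = 0.975). The 3-base form of miR-181a-5p was 0.206% to 0.424% of all reads in CTL and 0.345% to 0.583% in cKO, and the groups overlapped.

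Each miRNA was then tested for the odds that a read was truncated, cKO against CTL, with edgeR's quasi-likelihood test and Benjamini-Hochberg adjustment over the 76. The odds were higher in cKO for 2 miRNAs, let-7d-3p and miR-181a-5p (2.63% of those tested), and lower for none (0%). At an unadjusted p under 0.05, 16 were higher (21.1%) and 2 lower (2.63%), and DESeq2 called 10 higher and 1 lower after adjustment, the latter miR-27a-5p. The cKO mean was above the CTL mean in 63 of 76, and the median log2 odds ratio was 0.26. In 7 miRNAs (9.21%) all 4 cKO libraries lay above all 5 CTL libraries, namely let-7d-3p, let-7f-5p, let-7g-5p, miR-181a-5p, miR-181d-5p, miR-21a-5p and miR-24-3p, and in none (0%) below. With uridylated reads left out, 48 log2 odds ratios in place of 61 were above 0, their median was 0.11 and only let-7d-3p passed. Without the library labelled CTL replicate 2, edgeR called 6 miRNAs higher (let-7d-3p, miR-181a-5p, miR-21a-5p, miR-27a-3p, miR-27b-3p and miR-328-3p), none lower, with 24 higher and 2 lower at an unadjusted p under 0.05. The groups then did not overlap in 16 miRNAs (21.1%), all with cKO above. These were the 7 named before and let-7d-5p, miR-130b-5p, miR-148b-3p, miR-181b-5p, miR-223-3p, miR-27a-3p, miR-27b-3p, miR-328-3p and miR-423-3p.

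let-7d-3p, the passenger arm of the let-7d hairpin, showed the largest difference. It is encoded at chr13:48689500-48689521 (- strand, in an exon of the lncRNA *6720427I07Rik*), and the genome continues with a T. Its truncated share was 31.3%, 86.3%, 21.9%, 29.1% and 20.6% in CTL replicates 1 to 5 and 97.0%, 96.9%, 97.5% and 97.3% in cKO replicates 1 to 4. The groups did not overlap, and the library labelled CTL replicate 2 lay far above the other CTL libraries and below the cKO range. The means were 37.9% ± 27.5 (SD, n = 5) and 97.2% ± 0.298 (SD, n = 4), with a log2 odds ratio of 6.04 (SE 0.90, edgeR adjusted p = 0.00475). Without the library labelled CTL replicate 2 the CTL mean was 25.7% ± 5.26 (SD, n = 4) and the log2 odds ratio 6.66. Over the 21 alternatives the edgeR, DESeq2 or quasi-binomial adjusted p ranged from 3.77e-55 to 0.393.

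The change in let-7d-3p was almost wholly in its last base. Reads without the final T were 28.1%, 78.0%, 20.2%, 25.4% and 19.2% of reads in CTL replicates 1 to 5 and 92.6%, 91.8%, 91.4% and 77.6% in cKO replicates 1 to 4. Reads ending at the mature end were 67.9%, 13.7%, 76.5%, 69.6% and 78.5% in CTL and 2.92%, 3.10%, 2.40% and 2.68% in cKO. A full-length let-7d-3p read and a read of the 1-base shorter form with 1 added uridine are identical, so a loss of the one and a loss of the other cannot be told apart. Reads lacking 2 or more bases, set against all other reads, gave a log2 odds ratio of 1.32 (edgeR adjusted p = 0.393). Reads listed as uridylated were 0.922% ± 0.601 in CTL and 0.0342% ± 0.0408 in cKO.

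miR-328-3p, named after its values were seen and known as a decoy for the RNA-binding protein hnRNP E2 in blood cells, had the same form of change. It is encoded at chr8:106035011-106035032 (- strand, no host gene on that strand), ends in T and is followed by C in the genome. Its truncated share was 10.0%, 58.7%, 9.92%, 8.95% and 5.97% in CTL replicates 1 to 5 and 51.3%, 57.3%, 53.6% and 59.8% in cKO replicates 1 to 4. The library labelled CTL replicate 2 lay inside the cKO range and the other 4 far below it. The log2 odds ratio was 3.09 (SE 0.81, edgeR adjusted p = 0.0669), and without that library the CTL mean was 8.71% ± 1.89 (SD, n = 4) and the log2 odds ratio 3.74 (edgeR adjusted p = 5.96e-06, and up to 0.351 over all alternatives). Reads without the final T were 6.79%, 47.7%, 7.39%, 7.54% and 3.91% in CTL and 40.8%, 46.6%, 43.6% and 47.5% in cKO. Its uridylated share ran the other way, with 16.8%, 2.59%, 11.4%, 20.7% and 16.2% in CTL and 0%, 0%, 0.112% and 0% in cKO.

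Other miRNAs ending in T showed no difference of this size. Of the 32, edgeR called 2 higher and 5 did not overlap, with a median log2 odds ratio of 0.32, and of the 44 with another last base it called none and 2 did not overlap, with a median of 0.22. DESeq2 called 5 of the 44, miR-21a-5p, miR-27a-3p, miR-27b-3p and miR-93-5p higher and miR-27a-5p lower. The difference between these 2 sets was not tested. Apart from let-7d-3p and miR-328-3p, no cKO mean exceeded its CTL mean by more than 14.6 percentage points, and 53 of 76 group means lay within 5 percentage points of each other.

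miR-181a-5p, which tunes lymphoid signalling, is encoded at chr1:137894206-137894228 and chr2:38742753-38742775 (both + strand, in lncRNAs). Its truncated share was 27.6%, 27.3%, 26.2%, 29.7% and 27.9% in CTL replicates 1 to 5 and 39.2%, 33.1%, 41.9% and 34.8% in cKO replicates 1 to 4. The groups did not overlap, and the means were 27.7% ± 1.27 (SD, n = 5) and 37.2% ± 4.04 (SD, n = 4). The log2 odds ratio was 0.63 (SE 0.14, edgeR adjusted p = 0.0495) and 0.45 (edgeR adjusted p = 0.148) with uridylated reads left out. The call passed in 10 of 21 alternatives, with adjusted p from edgeR, DESeq2 or the quasi-binomial model of 0.00061 to 0.351, and was lost without any one of CTL replicates 1, 3, 4 and 5 and cKO replicates 1 and 3. Reads without the last 2 bases accounted for most of it, at 12.5%, 13.2%, 12.4%, 14.1% and 16.3% in CTL and 21.3%, 18.8%, 22.1% and 16.1% in cKO, where cKO replicate 4 fell inside the CTL range. Its uridylated share was 16.3% ± 3.06 in CTL and 7.94% ± 2.68 in cKO. T is the next genomic base at both copies, so an added T and an encoded one cannot be told apart in these reads.

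Neither relative of miR-181a-5p with the same seed passed the test. miR-181b-5p had 34.7% ± 1.24 in CTL (SD, n = 5) and 39.7% ± 3.40 in cKO (SD, n = 4), with a log2 odds ratio of 0.31 (edgeR adjusted p = 0.169). miR-181d-5p, which differs from miR-181b-5p by C12T, had 13.1% ± 2.72 and 18.9% ± 1.85, with a log2 odds ratio of 0.63 (edgeR adjusted p = 0.141). In all 9 libraries miR-181b-5p was truncated more often than miR-181d-5p, by 17.9 to 25.1 percentage points. Of the family, edgeR called 1 of 3 members tested, and their median log2 odds ratio was 0.63 beside 0.26 over all 76.

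Of the 7 let-7 miRNAs tested, edgeR called only let-7d-3p, while DESeq2, and edgeR with at least 200 reads in every library, also called let-7d-5p, let-7f-5p and let-7g-5p higher. Their median log2 odds ratio was 0.41. The let-7 guide strands, which restrain growth genes and share the seed GAGGTAG, all end in T. let-7d-5p had a share of 21.3% ± 2.35 in CTL and 27.8% ± 3.51 in cKO, let-7f-5p 18.5% ± 1.80 and 23.3% ± 0.895, and let-7g-5p 12.6% ± 0.812 and 16.2% ± 2.102 (SD, n = 5 and 4), each with an edgeR adjusted p of 0.101 and log2 odds ratios of 0.51, 0.43 and 0.41. let-7i-5p, the most abundant of them, had only 2.68% ± 0.566 and 3.23% ± 1.89 and lay below let-7d-5p in all 9 libraries. The spread within the family was thus wider than the difference between genotypes in any of these 4.

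let-7a-5p and let-7c-5p, which differ by A19G, cannot be separated once bases 19 to 22 are lost. The shared read of 18 bases shown above was counted 10079 times and was listed under let-7c-5p in CTL replicates 1 and 5 and cKO replicates 1 and 2, and under let-7a-5p in the other 5 libraries. The truncated share of let-7c-5p accordingly was 95.6%, 54.0%, 39.7%, 55.4% and 94.9% in CTL replicates 1 to 5 and 93.5%, 96.5%, 22.7% and 21.1% in cKO replicates 1 to 4. Both names together gave 17.9% ± 1.82 in CTL (SD, n = 5) and 22.3% ± 1.57 in cKO (SD, n = 4), and the shared read alone 5.42% ± 0.602 and 6.43% ± 1.203 of their reads. Of all truncated reads, 2.97% ± 1.04 in CTL and 1.76% ± 0.485 in cKO had a sequence that fits more than 1 miRNA.

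miR-21a-5p, an oncogenic miRNA raised in many tumours, and miR-24-3p were among the miRNAs whose groups did not overlap, and both end in a base other than T. For both, a read that lost its last base and gained a T is not matched and not counted, so tails on shortened molecules cannot be seen here. miR-21a-5p had 25.2%, 25.2%, 20.8%, 25.1% and 21.8% in CTL replicates 1 to 5 and 33.0%, 28.3%, 35.9% and 32.1% in cKO replicates 1 to 4, with a log2 odds ratio of 0.63 (SE 0.16, edgeR adjusted p = 0.0669). Its uridylated share was 27.2% in CTL and 17.9% in cKO as group means, and without uridylated reads the log2 odds ratio was 0.43 (edgeR adjusted p = 0.159, within 0.00131 to 0.463 over all alternatives). miR-24-3p had 55.2%, 55.7%, 52.4%, 53.8% and 51.5% in CTL and 57.8%, 55.96%, 57.9% and 61.8% in cKO, with a log2 odds ratio of 0.27 (edgeR adjusted p = 0.206). The gap between the groups of miR-24-3p was small beside their spread.

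In the remaining families, chosen with earlier results known, edgeR made no further call, while DESeq2 called miR-27a-3p, miR-27b-3p and miR-93-5p higher and miR-27a-5p lower. Of the miR-23/24/27 miRNAs 5 were tested, with a median log2 odds ratio of 0.27, and of the miR-30 family 4, with 0.23. The miR-25/92 family had 3 (0.12), miR-221 and miR-222 together 3 (0.19), the miR-26 family 2 (-0.08) and the family of miR-148 and miR-152 2 (0.23). These lists were made by name and can hold both arms of a hairpin. In the list named for the miR-17 seed, miR-93-5p was at 0.70. The other miRNA in it, miR-106b-3p, has another seed and was at -0.02. The 4 myeloid miRNAs tested, of miR-223, miR-146 and miR-155, had a median of 0.29. The single members tested were at 0.03 for the miR-15/16 seed family, 0.20 for miR-103-3p, 0.89 for miR-351-5p, 0.38 for miR-10a-5p and 0.19 for the miR-29 family. With uridylated reads left out these were, in the same order, 0.02, -0.08, -0.14, 0.32 and 0.17. miR-223-3p, the granulocyte miRNA, had 21.3% ± 5.20 in CTL and 29.9% ± 2.27 in cKO, and its log2 odds ratio of 0.68 (edgeR adjusted p = 0.141) was 0.16 with uridylated reads left out.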

How the data were processed

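Small RNA of 15 to 40 nt was gel-selected and made into NEBNext libraries without molecular identifiers, with 16 PCR cycles. Per the labels and the study's methods, reads were trimmed with cutadapt 5.0 and mapped with Bowtie 1.3.1 (versions from the submitters' processing notes) without mismatches to mature miRNAs with 3 Ts added, and the authors deposited counts of each read sequence with its miRNA, start and end. These equalled the deposited table of counts after summing. DESeq2 1.42.1 is also named in those notes.

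From these counts, reads ending before the mature end were summed by miRNA, library and missing bases. Library values were compared with two-sided exact permutation tests coded directly in Python 3.11.15, and with SciPy 1.17.1 for some measures without CTL replicate 2. Truncated against other reads of each miRNA were compared with edgeR 4.0.16 (quasi-likelihood test, genotype by read class, R 4.3.3). This kept miRNAs with at least 10 truncated and 10 other reads. Alternatives were other read minimums, uridylated or ambiguous reads left out, reads lacking 1 base counted with the other reads, and other scaling. Further ones were DESeq2 1.42.0, a quasi-binomial model, a replicate block and leaving out each library. The method was tested on simulated data. Wilson intervals cover counting error only. Coordinates come from matching mature sequences to GRCm39 within miRNA genes of the GENCODE annotation.

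Named miRNAs were the 10 with most truncated reads, the 5 with the highest and lowest share, those called and let-7 members. miR-328-3p, miR-181d-5p, miR-21a-5p and other miRNAs outside this rule, among them miR-27b-3p, miR-148b-3p, miR-1981-5p and miR-223-3p, were named after their values were seen. Members and lists were chosen with earlier results of these data known.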

Additional observations from a re-analysis of the deposited data

Results flagged for a closer look

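In 31 measures, each in the 5 CTL and the 4 cKO libraries (62 groups), 5 groups held a library far outside the rest. Chance gives about 1 in 20, but miR-328-3p and a few other miRNAs were among those measured because of their values, so the count cannot be set against it. The library labelled CTL replicate 2 was highest for let-7d-3p (86.3% truncated, the other CTL libraries 20.6% to 31.3%), for miR-328-3p (58.7%, the others 5.97% to 10.0%) and for miR-7a-5p (1.76%, the others 0.465% to 0.821%). cKO replicate 4 was highest for let-7i-5p (6.04%, the other cKO libraries 1.94% to 2.53%) and for miR-92a-3p (1.07%, the others 0.390% to 0.465%). The same libraries had the highest truncated share of their genotype for 37 (CTL replicate 2) and 41 (cKO replicate 4) of the 76 miRNAs. The cause was not tested.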

How the results depend on the processing

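let-7d-3p was called higher in cKO under 19 of 21 alternatives and miR-181a-5p under 10. The count of miRNAs called higher, 2 by edgeR, was 5 of 112 with at least 20 reads in every library, 8 of 47 with at least 200 and 14 of 495 over all miRNAs, 1 with uridylated reads left out, 1 for reads lacking at least 2 bases (miR-27b-3p, not one of the 2), 10 with DESeq2 and 0 with a quasi-binomial model (20 higher and 2 lower at an unadjusted p under 0.05). The count called lower, 0, was 1 for at least 2 missing bases (miR-146b-5p), 1 over all miRNAs and 1 with DESeq2. Leaving out 1 library at a time gave 1 to 6 higher calls, with 6 without CTL replicate 2, 5 without cKO replicate 2 and 1 without CTL replicate 1, 3, 4 or 5 or cKO replicate 1 or 3. The cause was not tested.

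The difference in truncated share was 1.26 to 4.15 percentage points without 1 library and, with equal composition (exact permutation p = 0.0476), 2.996. The difference in median share was 4.13 (exact permutation p = 0.0476) with at least 20 reads and 1.75 (without cKO replicate 4) to 3.98 (without CTL replicate 2) without 1 library. The difference in missing bases was 0.0143 to 0.0524 without 1 library, the latter without cKO replicate 4 (exact permutation p = 0.0357), and 0.0578 (exact permutation p = 0.0794) without reads that match another mature sequence.

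Among log2 odds ratios that changed sign under an alternative, none was called by edgeR over the 76 miRNAs and 9 libraries, and that of miR-27a-3p was called higher without CTL replicate 2, with DESeq2 and over all miRNAs. Without 1 library they ran from -0.020 to 0.22 for miR-191-5p, -0.014 to 0.66 for miR-298-5p, -0.15 to 0.56 for miR-221-3p, -0.29 to 0.20 for miR-122-5p, -0.29 to 0.058 for miR-330-5p, -0.73 to 0.45 for miR-148a-3p, -0.22 to 0.27 for miR-92a-3p, -1.78 to 1.12 for let-7c-5p and -0.21 to 0.35 for let-7i-5p. For at least 2 missing bases, with reads lacking 1 base counted among the others, they were -0.042 for let-7a-5p, -0.14 for miR-27a-3p and 0.053 for miR-330-5p. The quasi-binomial model gave 0.011 for miR-122-5p and 0.24 for let-7c-5p, DESeq2 -0.015 for miR-148a-3p, and leaving out uridylated reads -0.11 for miR-92a-3p.

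Deviations of same-numbered CTL and cKO libraries correlated at 0.32, -0.36, 0.45 and 0.22, and 1 of the 4 cKO libraries correlated best with its own number. With so few libraries this cannot settle whether the numbers pair them, and the main tests took them as unpaired. A replicate block gave 1 higher call (let-7d-3p) and 0 lower, with 5 higher and 0 lower at an unadjusted p under 0.05, and log2 odds ratios of 0.15 for miR-122-5p, -0.17 for miR-148a-3p, -0.11 for miR-92a-3p and 0.12 for let-7c-5p. Paired differences were 2.41 in truncated share, 2.04 in median share and 0.0289 in missing bases, where 4 pairs cannot give an exact p below 0.125.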
